A study of Rattus norvegicus with 6 samples.

Results

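NRF2, the product of Nfe2l2, is the transcription factor that switches on antioxidant and detoxifying enzymes, and 9 genes of its system were followed here: 6 further targets beside the quinone reductase Nqo1, the factor itself and its repressor Keap1. They were chosen by gene symbol, and all 9 were found among the 20422 genes of the deposited expression table and passed the filter on low counts. The treated samples were primary oligodendrocyte cultures from rats at postnatal day 1 that had received 0.01 mM water-soluble cholesterol for 12 h (3 libraries), and their controls were the same kind of culture given PBS, a buffered salt solution, for 12 h (3 libraries). Poly(A) RNA was sequenced to between 63769532 and 67656224 counts per cholesterol library and between 68902794 and 70878378 per PBS library. The sources used here give neither strain, sex nor the number of animals pooled per culture. They also do not say whether the libraries of a group came from separate cultures, so p-values cover the spread among these libraries only, and that spread may be technical. Cholesterol is usually made water-soluble with a cyclodextrin carrier, and cultures given such a carrier alone were not analysed here.

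In unstressed cells KEAP1 holds NRF2 in the cytoplasm and hands it to a CUL3 ubiquitin ligase, so that NRF2 is degraded as fast as it is made. Oxidants and electrophiles modify cysteines of KEAP1, NRF2 then accumulates, enters the nucleus, pairs with a small MAF protein and binds antioxidant response elements near its targets. Much of this control acts on the protein, so the Nfe2l2 transcript is not a measure of NRF2 activity. In the brain, astrocytes are known for a strong NRF2 response, and oligodendrocytes for a low glutathione content and a high iron load.

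The antioxidant response element has the core TGACNNNGC, with TGAGNNNGC as a common relative, and both were searched on both strands of the RefSeq promoters of build GRCr8, which run from 250 bases before to 50 bases after a transcript's start. The promoters of 8 of the 9 genes were in that set, and 4 of the 8 held either core, against 27.1% of all 33469 promoters (12.1% for TGACNNNGC and 17.2% for TGAGNNNGC, which cannot both match at the same bases of a strand). The 4 were Gclm, Srxn1, 1 of the promoters of Txnrd1, and Nfe2l2, whose match lay 38 to 46 bases after the start. These genes were counted by gene, with Txnrd1 alone having 2 promoters, while the shares over the whole set are by promoter. The Nqo1 window held neither core, which says only that these letters are not in these bases. It held GCGTG, the core of the element bound by the aryl hydrocarbon receptor, which was present for 6 of the 8 genes and in 29.7% of all promoters. The windows below show the GCGTG match of Nqo1 and cores found before the starts of Gclm, Txnrd1 and Srxn1, so that the letters searched can be seen in place. Capitals mark the matched core, which is on the opposite strand to the one printed in each case, and each line is 5′ to 3′ on the gene's strand.
Nqo1 (chr19:52220268-52220293, minus strand): ctagcctaggctgtggCACGCaggat
Gclm (chr2:213031947-213031987, plus strand): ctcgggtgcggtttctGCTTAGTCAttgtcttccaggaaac
Txnrd1 (chr7:22755958-22755998, minus strand): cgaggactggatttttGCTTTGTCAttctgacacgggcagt
Srxn1 (chr3:161064678-161064718, plus strand): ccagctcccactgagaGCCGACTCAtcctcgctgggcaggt
A letter match is a description of the sequence, not evidence of binding. The Gclm core began 172 bases before the start, the Txnrd1 core 78 bases, the Srxn1 core shown 118 bases and the Nqo1 match 10 bases. Srxn1 held 3 matches to TGAGNNNGC in all, the others beginning 17 and 5 bases before the start, the last on the printed strand and running past the start.

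Nqo1 rose after cholesterol, and no other gene of the set rose by a comparable amount. Nqo1, which reduces quinones by the transfer of a pair of electrons, stood at 24.8, 32.6 and 26.1 CPM (the share of a library's counts, scaled by TMM) in the cholesterol libraries, against 7.01, 6.88 and 8.81 CPM in the PBS libraries. The lowest cholesterol value lay well above the highest PBS value. The means were 27.8 ± 4.19 CPM with cholesterol and 7.57 ± 1.08 CPM with PBS (SD, n = 3 each), a log2 fold change of 1.88 ± 0.126 (SE) or 3.68-fold. Nqo1 was picked for study because this rise was already known, so its size is a description and no test is given. Of the 16182 genes tested, 0.476%, Nqo1 among them, were called higher with a log2 fold change at least as large. This share too is a description.

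At an adjusted p of 0.05 in edgeR's quasi-likelihood test, 1 of the other 8 genes was higher, 3 were lower and 4 did not pass. Over all genes tested, 20.5% were called higher and 19.7% lower, 40.3% in either direction, so a call by itself was common in this comparison. With each library scaled to its median gene, the split over all genes was 2578 higher and 4011 lower, in place of 3325 and 3189. The median log2 fold change was -0.20 over the 8 genes and 0.0053 over all genes. Among the 6 other targets alone, 0 were higher and 3 lower in edgeR. At an unadjusted p under 0.05 the number higher was 1, and it was 0 with DESeq2, 0 with limma on log2(FPKM + 0.1) and 1 with limma on log2(FPKM + 1). The upper end of the 95% interval of the log2 fold change was at most 1.20 for the 8 genes other than Nqo1, that of Osgin1.

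**Figure D1:**
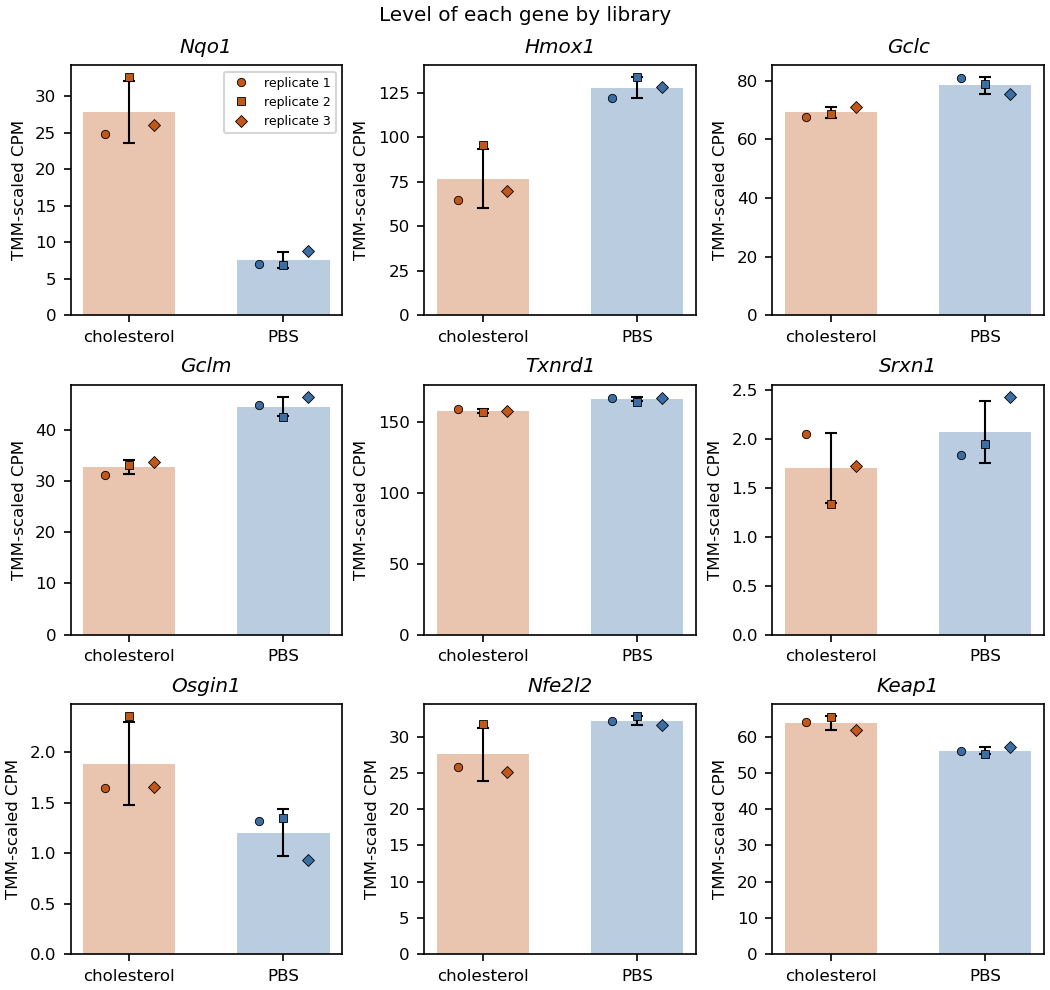
Level of each of the 9 genes in TMM-scaled CPM (vertical axes, each from 0) for the cholesterol and the PBS libraries. Bars are means, error bars the SD of 3 libraries, and circles, squares and diamonds are replicates 1, 2 and 3. The labels do not say whether these numbers pair libraries between the groups. Nqo1 is at 24.8 to 32.6 CPM with cholesterol and 6.88 to 8.81 CPM with PBS, while Hmox1, Gclc and Gclm lie lower with cholesterol.

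**Figure D2:**
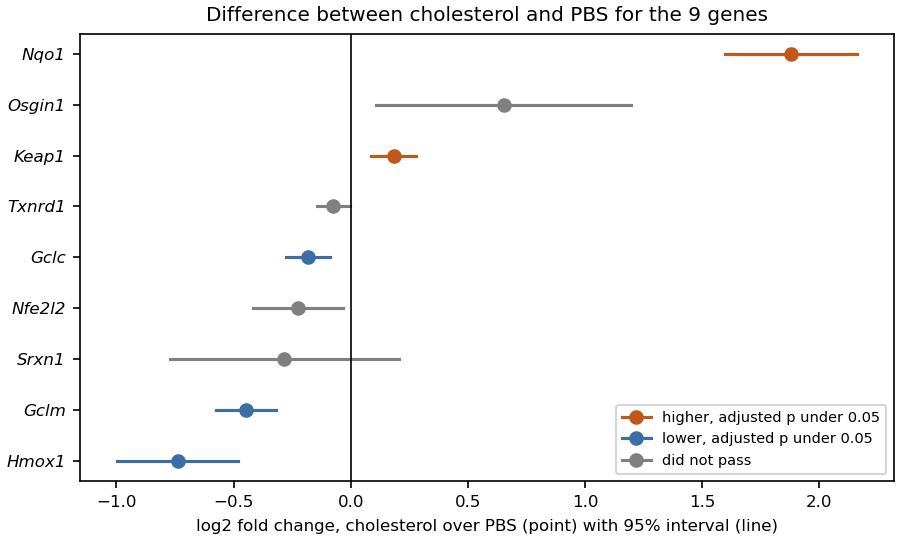
Log2 fold change of cholesterol over PBS for the 9 genes (points) with 95% intervals (lines) from edgeR. The colours show which genes passed an adjusted p of 0.05. Nqo1 was picked for its rise, so its colour and interval are a description only. Nqo1 is at 1.88, Keap1 at 0.18 and Hmox1, Gclm and Gclc at -0.74, -0.45 and -0.18.

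Both subunit genes of glutamate-cysteine ligase fell. The ligase carries out the rate-limiting step of glutathione synthesis, with Gclc encoding its catalytic and Gclm its modifier subunit. Gclm is on chromosome 2 and Gclc on chromosome 8. Gclm had 31.2, 33.1 and 33.8 CPM in the cholesterol libraries, against 44.8, 42.5 and 46.4 CPM in the PBS libraries. The groups did not overlap, and the log2 fold change was -0.45 ± 0.0579 (SE), with an adjusted p of 1.86e-04 in edgeR. Gclc had 67.6, 68.7 and 71.0 CPM with cholesterol, against 80.8, 78.9 and 75.3 CPM with PBS. These groups lay apart too, but by less, with a log2 fold change of -0.18 ± 0.0424 (SE, edgeR adjusted p = 0.00639). Per length, the ratio of Gclm FPKM to Gclc FPKM was 0.946, 0.987 and 0.9754 in the cholesterol libraries, against 1.14, 1.11 and 1.26 in the PBS libraries. The ratio was below 1 in all 3 cholesterol libraries and above 1 in all 3 PBS libraries. Two-sided exact permutation tests of this ratio and of Keap1 over Nfe2l2 each gave p = 0.1, also after adjustment over the 2, which is the smallest value that 3 against 3 libraries allow.

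Hmox1 had the largest fall of the 9. It encodes heme oxygenase 1, which breaks down heme to biliverdin, carbon monoxide and iron, and it is also held down by the repressor BACH1. Hmox1 had 64.8, 95.7 and 69.6 CPM in the cholesterol libraries, against 122, 134 and 128 CPM in the PBS libraries. All cholesterol values were lower than all PBS values, although cholesterol replicate 2 lay much closer to PBS than the other cholesterol libraries. The log2 fold change was -0.74 ± 0.116 (SE, edgeR adjusted p = 6.28e-04), and it was -0.93 without cholesterol replicate 2. Hmox1 is expressed by microglia as well as by other glia, and the summed level of 10 microglia markers moved in the same libraries. That sum was 252.5, 313.7 and 235.1 CPM in cholesterol replicates 1 to 3, against 385.4, 413.2 and 403.2 CPM in PBS replicates 1 to 3. Cholesterol replicate 2 was the highest of its group in both measures. It was also the highest of its group for Nqo1, Osgin1, Nfe2l2 and Keap1, but not for Gclc, Gclm, Txnrd1 or Srxn1. Of the 10 markers, 7 were lower and 1, Trem2, was higher (median log2 fold change -0.67), and none was at 0. Bulk RNA cannot tell fewer cells of a type from less RNA per cell, and the part of microglia in the Hmox1 result was not tested.

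Txnrd1, Srxn1 and Osgin1 did not pass. Txnrd1, the cytosolic thioredoxin reductase, had 159, 157 and 158 CPM in the cholesterol libraries, against 167, 164 and 167 CPM in the PBS libraries. The groups did not overlap, but the log2 fold change was only -0.07 ± 0.0324 (SE), with a 95% interval from -0.15 to -0.0018 and an edgeR adjusted p of 0.0957. With each library scaled to its median gene it passed at -0.13 (adjusted p = 0.0124). Srxn1, which restores overoxidised peroxiredoxins and is among the most sensitive NRF2 targets in many cells, was scarce. It had 131, 91 and 111 counts in the cholesterol libraries, against 130, 134 and 167 counts in the PBS libraries. These ranges overlap, and the 95% interval of the log2 fold change ran from -0.77 to 0.20 (edgeR adjusted p = 0.338). Osgin1, a growth inhibitor induced by oxidative stress, was scarcer per length, with 105, 160 and 107 counts with cholesterol, against 93, 93 and 64 counts with PBS. All 3 cholesterol libraries were above the PBS libraries once scaled, at 1.65, 2.36 and 1.66 CPM against 1.32, 1.35 and 0.934 CPM. Its log2 fold change was 0.65 with a 95% interval from 0.11 to 1.20 and an edgeR adjusted p of 0.0566, and it passed in 1 of 14 alternative analyses, limma on log2(FPKM + 1), at an adjusted p of 0.0486.

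Of the regulator pair, Keap1 rose slightly and Nfe2l2 did not pass. Keap1 had 64.0, 65.5 and 61.7 CPM in the cholesterol libraries, against 56.1, 55.2 and 57.2 CPM in the PBS libraries. These groups did not overlap, and the log2 fold change was 0.18 ± 0.0429 (SE, edgeR adjusted p = 0.00652). Nfe2l2 had 25.8, 31.8 and 25.1 CPM with cholesterol, against 32.2, 32.8 and 31.6 CPM with PBS. Cholesterol replicate 2 lay within the PBS range and the other cholesterol libraries below it, with a log2 fold change of -0.22 and an edgeR adjusted p of 0.0608. Without cholesterol replicate 2 the log2 fold change was -0.34 and passed (adjusted p = 0.00202), and over 15 alternatives the adjusted p lay between 0.00202 and 0.190. Per length, the ratio of Keap1 FPKM to Nfe2l2 FPKM was 2.12, 1.76 and 2.099 with cholesterol, against 1.49, 1.44 and 1.55 with PBS (exact permutation p = 0.1, the smallest possible here). The ratio of Nqo1 FPKM to Nfe2l2 FPKM was 1.55, 1.65 and 1.68 with cholesterol, against 0.351, 0.337 and 0.449 with PBS, which restates the known rise of Nqo1 and is given with no test. Among the 8 genes other than Nqo1, 6 had groups that did not overlap, against 52.3% of all genes tested.

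Levels per length ordered the genes much alike in both groups, with Nqo1 as the main exception. In the cholesterol libraries the mean FPKM was 46.1 ± 10.03 for Hmox1, 41.6 ± 0.221 for Txnrd1, 21.1 ± 0.665 for Gclc and 20.4 ± 0.973 for Gclm (SD, n = 3). Keap1 followed at 18.5 ± 0.497 FPKM, Nqo1 at 15.3 ± 2.31, Nfe2l2 at 9.36 ± 1.25, Srxn1 at 1.92 ± 0.398 and Osgin1 at 0.592 ± 0.129 FPKM. The library values of Hmox1 and Txnrd1 overlapped in that order, as did those of Gclc and Gclm. In the PBS libraries the mean FPKM was 76.3 ± 3.56 for Hmox1, 43.5 ± 0.389 for Txnrd1, 27.6 ± 1.17 for Gclm and 23.7 ± 0.841 for Gclc. Keap1 had 16.2 ± 0.282 FPKM there, Nfe2l2 10.9 ± 0.215, Nqo1 4.11 ± 0.583, Srxn1 2.32 ± 0.351 and Osgin1 0.373 ± 0.0698 FPKM, with no overlap between neighbours. Nqo1 thus stood above Nfe2l2 with cholesterol and below it with PBS.

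**Figure D3:**
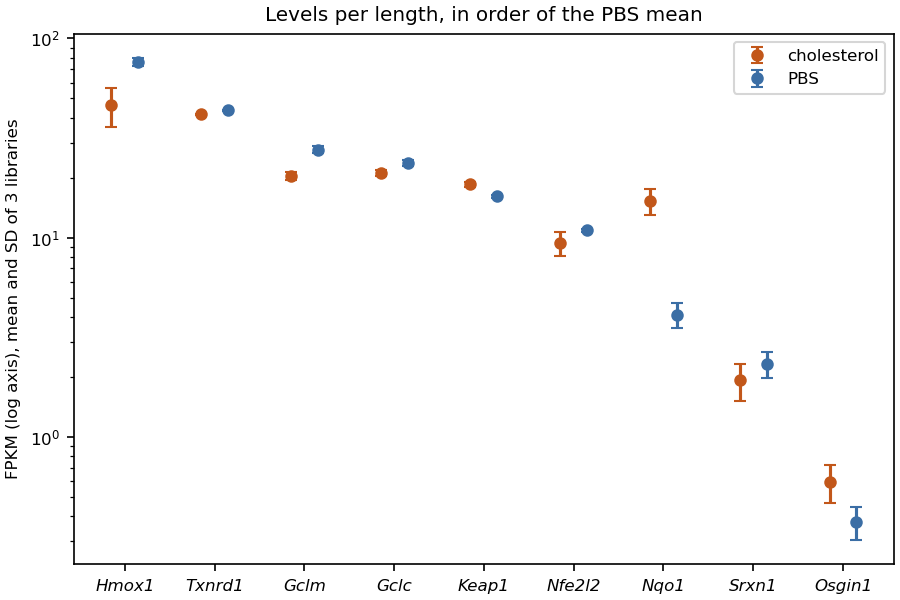
Level per length of each gene in FPKM (log axis), as mean and SD of the 3 cholesterol and the 3 PBS libraries, in order of the PBS mean. Nqo1 is at 15.3 FPKM with cholesterol and 4.11 FPKM with PBS, and Hmox1 is at 46.1 FPKM with cholesterol and 76.3 FPKM with PBS.

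In a wider list of 31 genes known as NRF2 targets, more genes were higher than lower. Of the 28 that passed the filter, 17 were higher, 2 lower and 9 did not pass, against 20.5% higher and 19.7% lower over all genes, and their median log2 fold change was 0.27. Gpx2 fell below the filter, and Pgd and Cbr1 were not matched by symbol. Ephx1, the microsomal epoxide hydrolase, had 10.9, 12.6 and 13.7 CPM in the cholesterol libraries, against 4.08, 4.96 and 3.75 CPM in the PBS libraries. That was a clear gap between the groups and a log2 fold change of 1.54 ± 0.132 (SE, edgeR adjusted p = 1.46e-05). Me1, the cytosolic malic enzyme that makes NADPH, rose by 0.51 on the log2 scale (adjusted p = 7.44e-05). The 2 genes that fell were Ugdh, which makes UDP-glucuronic acid (-0.50, adjusted p = 2.94e-05), and Idh1, the cytosolic isocitrate dehydrogenase (-0.36, adjusted p = 1.14e-04). Without cholesterol replicate 2 the number lower was 4, and 14 to 16 were higher when any 1 library was left out. The light ferritin chain gene Ftl1 (0.02, adjusted p = 0.822) and Tkt, transketolase (-0.09, adjusted p = 0.0521), were the most abundant that did not pass. Tkt passed in 6 of 15 alternatives, at -0.14 (adjusted p = 0.00589) when libraries were scaled to their median gene.

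Further genes of the wider list are given here by role, and were named after their values were seen. The glutathione transferases Gsta4 (log2 fold change 0.86), Gstm1 (0.45), Gstp1 (0.27) and Mgst1 (0.80) were all higher. Pir, an iron-binding nuclear protein, was at 5.88, 7.13 and 5.37 CPM with cholesterol, against 3.40, 2.88 and 3.06 CPM with PBS, a log2 fold change of 0.98. Akr7a3, an aldehyde reductase, rose most of this list on the log2 scale (1.99), at levels of only 1.24, 1.09 and 0.667 CPM with cholesterol against 0.269, 0.364 and 0.117 CPM with PBS. In the glutathione and thioredoxin systems, Gss, which completes glutathione synthesis, was higher (0.61) although both ligase subunits fell. Txn1, thioredoxin, was higher (0.40), as were the peroxiredoxins Prdx6 (0.36) and Prdx1 (0.19), but the Prdx1 call is weak. Prdx1 was at 0.16, 0.20 and 0.20 without PBS replicates 1, 2 and 3 (adjusted p = 0.107, 0.0618 and 0.0515) and at 0.07 with the length trend removed (adjusted p = 0.249). Slc7a11, the cystine importer, did not pass (-0.09, adjusted p = 0.712), nor did Gsr, which regenerates glutathione (-0.03, adjusted p = 0.779). Ephx1, Ftl1, Fth1 and Blvrb overlap other annotated genes and the transferases have close paralogs, so their counts are less certain. None of the 9 genes overlaps another annotated gene.

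**Figure D4:**
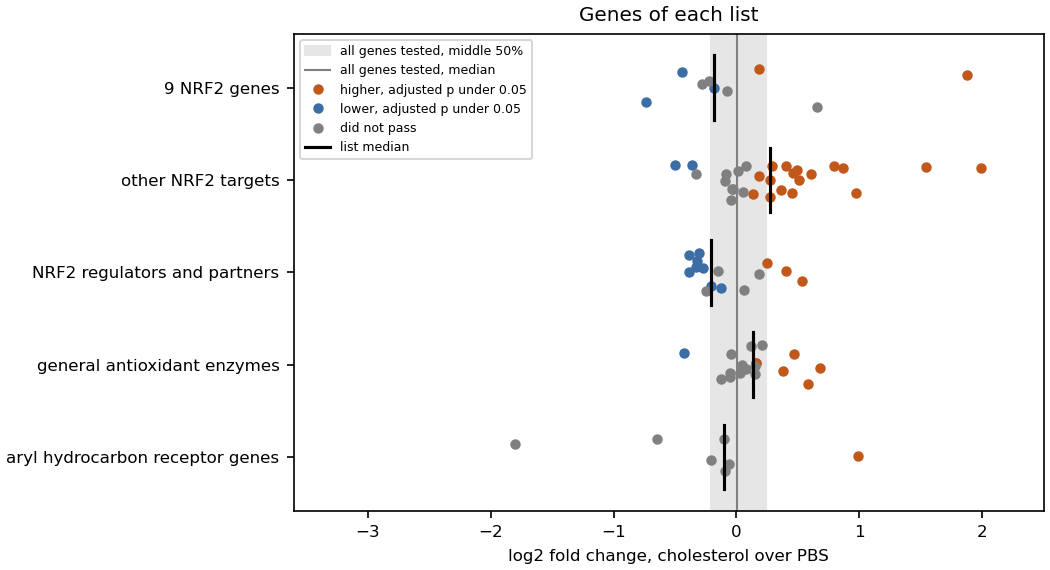
Log2 fold change of cholesterol over PBS for each tested gene of 5 lists, coloured by the call at an adjusted p of 0.05. The grey band is the interquartile range and the grey line the median of all 16182 genes tested, and black bars are list medians, at -0.18 for the 9 NRF2 genes and 0.27 for the wider target list. Nqo1, picked for its rise so that its colour is a description only, is the point at 1.88 in the top row.

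Partners and regulators of NRF2 went both ways. Of 15 genes, 8 were lower, 3 higher and 4 did not pass, against 19.7% lower and 20.5% higher over all genes tested, with a median log2 fold change of -0.21. Bach1, the repressor that competes with NRF2 for its elements, was lower (-0.39, adjusted p = 2.81e-04), as was Mafg, a small MAF partner (-0.31, adjusted p = 1.06e-04). Gsk3b, whose kinase marks NRF2 for degradation outside the KEAP1 route, was lower (-0.33, adjusted p = 1.82e-04), while Btrc, the ligase subunit that acts on that mark, was higher (0.41, adjusted p = 2.53e-04). Cul3, the scaffold of the KEAP1 ligase, was lower (-0.21) and its RING subunit Rbx1 higher (0.25, or 0.14 with an adjusted p of 0.0577 once the trend on transcript length was removed). Dpp3, a KEAP1-binding peptidase, did not pass (0.06). The Mafk entry tested (-0.15, not passed) is typed as a long non-coding RNA on the strand opposite another entry of that symbol, so its value is not that of the small MAF gene with any certainty. Cul3 and Rbx1 were named after their values were seen. Gsk3b and Rbx1 overlap other annotated genes.

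Of 18 antioxidant enzymes that are not mainly NRF2 targets, 6 were higher, 1 lower and 11 did not pass. The share called, 38.9%, was close to the 40.3% of all genes, with a median log2 fold change of 0.14. Gpx3, a secreted glutathione peroxidase whose entry overlaps another and is typed as a long non-coding RNA in the table, was higher (0.68, adjusted p = 5.96e-05), and Prdx4 (0.38) and Gpx8 (0.47), both of the endoplasmic reticulum, were higher as well. Glrx, glutaredoxin, was the 1 gene lower (-0.43, adjusted p = 0.00316), with 4 genes lower without cholesterol replicate 2, among them Gpx1 at -0.17 (adjusted p = 0.00489). Removing the length trend left 3 genes higher. Catalase, encoded by Cat, did not pass (-0.05, adjusted p = 0.327).

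Nqo1 also belongs to the gene battery of the aryl hydrocarbon receptor, so 9 genes of that pathway were listed, of which 7 were tested. Cyp1a1, the receptor's best known target, was higher at 4.52, 3.92 and 3.74 CPM in the cholesterol libraries, against 1.87, 2.28 and 1.97 CPM in the PBS libraries. The groups lay apart, with a log2 fold change of 0.99 ± 0.159 (SE, edgeR adjusted p = 6.93e-04). The other 6 did not pass, and 0 were lower by edgeR (0 also at an unadjusted p under 0.05 and by DESeq2), though 1 was lower without cholesterol replicate 2. Tiparp, another direct target of the receptor, was at -0.06 (adjusted p = 0.557) and Arnt, its partner, at -0.09 (adjusted p = 0.209). The calls came to 14.3% of this list, against 40.3% of all genes, with a median log2 fold change of -0.10, the value of Ahrr. Counts per library were only 0 to 24 for Aldh3a1, 14 to 56 for Ahrr and 12 to 102 for Ahr. The SE of their log2 fold changes was 1.12, 0.52 and 0.52, so their missing calls and this median carry little weight.

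Among 11920 genes with a symbol and a mean of at least 1 FPKM, the 6 whose centred log2 CPM over the 6 libraries lay closest to that of Nqo1 were Aadat, Extl1, Septin4, Rrad, Aldh1a1 and Mobp. Their Euclidean distances from Nqo1 were 0.305 to 0.533 log2 units. Aadat, an aminotransferase of lysine and kynurenine breakdown, was closest, with 3.33, 4.14 and 3.52 CPM with cholesterol, against 0.808, 0.480 and 0.978 CPM with PBS. Distances were taken on log2(CPM + 0.5), which shrinks differences of scarce genes. By edgeR, the log2 fold change of Aadat was 2.28, the furthest of the 6 from the 1.88 of Nqo1. Aldh1a1, which makes retinoic acid, was at a log2 fold change of 2.01 and Mobp, a myelin protein, at 2.101. None of the 6 belongs to the NRF2 lists used here. They were picked for likeness to Nqo1, so their fold changes are a description.

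The cultures expressed oligodendrocyte markers throughout and those of other glia as well. All 9 oligodendrocyte markers were tested, with a summed level of 23400 to 27130 CPM in cholesterol libraries and 15150 to 15500 CPM in PBS libraries, and 5 were higher and 1 lower. The 10 astrocyte markers summed to 2718 to 2992 CPM with cholesterol and 1815 to 1824 CPM with PBS, with 7 higher, 2 lower and none at 0. Gfap alone had a mean of 1924 CPM with cholesterol and 942 CPM with PBS, so the sum mostly follows Gfap. The median log2 fold change of the 10 was 0.56, and the 2 lower were Aldoc and Fgfr3. Nqo1 and Ephx1 rose in the same libraries, and the part of astrocytes in those rises was not tested. Within the cholesterol group, replicate 2 had the highest Nqo1. Its astrocyte sum, 2824 CPM, lay between those of the other libraries of its group, and its microglia sum, 313.7 CPM, was the highest. An order of 3 libraries is a description only. Of 7 fibroblast and endothelial markers 3 were higher and 2 lower, and of 8 neuron markers 1 was higher and 1 lower. These counts stand against 20.5% higher and 19.7% lower over all genes tested.

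**Figure D5:**
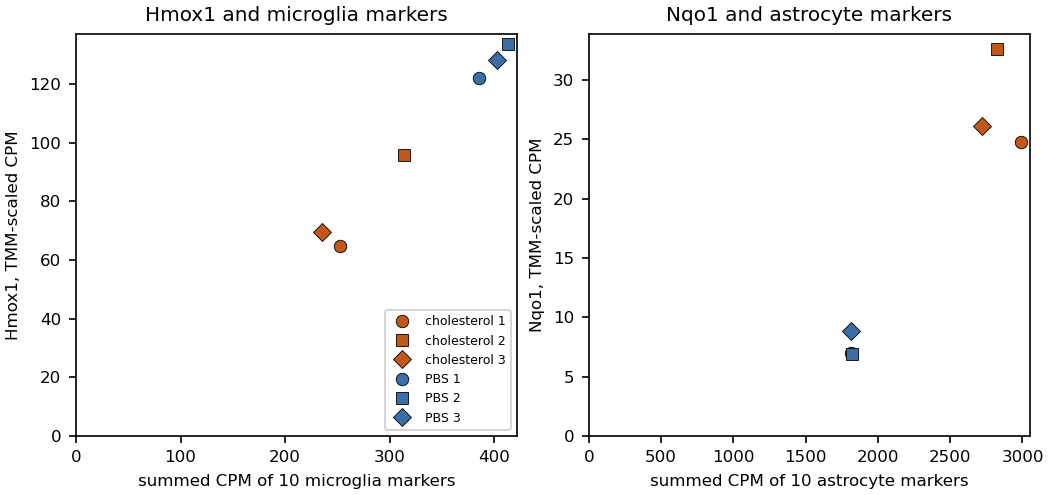
Left, Hmox1 CPM against the summed CPM of 10 microglia markers, and right, Nqo1 CPM against the summed CPM of 10 astrocyte markers, for the 3 cholesterol and 3 PBS libraries. All axes start at 0. Hmox1 and the microglia sum are both lower in the cholesterol libraries, with cholesterol replicate 2 at 95.7 and 313.7 CPM, and Nqo1 and the astrocyte sum are both higher there. Most of the astrocyte sum is Gfap.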

How the data were processed

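Per the file headers, the deposited columns are raw counts and FPKM for each Ensembl gene in 6 libraries. The submitters' processing notes list build rn6, DESeq2, edgeR, StringTie 2.1.6, HISAT2 2.2.1 and cutadapt 1.9, with no role stated. How the authors made the counts, and whether counting used strand, is not given in the sources used here. Which build the deposited coordinates use is in doubt, since the header names none and the highest gene end on chromosome 1, 260311843, was not checked against rn6, so none are printed. Groups came from sample titles. From the deposited counts, genes passing filterByExpr (16182 of 20422) were scaled by TMM and tested with edgeR 4.0.16 (R 4.3.3) by the quasi-likelihood test, two-sided, with Benjamini-Hochberg adjustment over all genes tested. The SE is the log2 fold change over the square root of F. The deposited FPKM, which the authors scaled by length and depth per the header name, served for levels between genes and for limma 3.58.1. DESeq2 1.42.0 was an alternative. The procedure was tested on simulated data. A count of 3 equals 0.0425 to 0.047 CPM here, for counting error only. Libraries within a group differed beyond counting noise (chi-square per degree of freedom of at least 8.65), so none was a copy of another. Separate preparations of the same RNA could differ in this way too.

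Genes and lists were chosen with earlier results of these data known. The text names the 9 genes, and from each further list the 4 smallest p among genes past the threshold and the 2 most abundant that did not pass, with others that are marked where they appear as named after their values were seen. It also names the 6 genes closest to Nqo1, on log2(CPM + 0.5). Symbols with several entries used the one with the highest mean FPKM. Promoters were taken from RefSeq, build GRCr8.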

Additional observations from a re-analysis of the deposited data

How the results depend on the processing

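Of the 9 genes, 15 alternative analyses (14 for Osgin1, which falls under a mean of 1 FPKM) kept the direction of every one, and Hmox1, Gclc, Gclm and Keap1 passed in all 15. The number of the 9 genes that were lower was 5 rather than 3 when libraries were scaled to their median gene, where Txnrd1 and Nfe2l2 also passed. Removing the length trend left 3 antioxidant enzymes higher rather than 6. Over analyses without 1 library each, the number lower was 2 to 4 in the wider target list, 1 to 4 among the antioxidant enzymes and 0 to 1 in the aryl hydrocarbon receptor list, with the highest value of each without cholesterol replicate 2. Ftl1, which did not pass, changed sign when libraries were scaled to their median gene (-0.0397) and once the length trend was removed (-0.0252), and ran from -0.0403 to 0.0472 without 1 library each. Gpx1 ran from -0.17 to 0.0037 in the same analyses. The cause of these shifts was not tested. The counts for the 4 wider lists under alternatives were added after seeing the data.

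The labels do not say whether replicate numbers pair the samples, and the main fit treated them as unpaired. The correlations of deviations from the group means for numbers 1, 2 and 3 were 0.0406, -0.0038 and -0.0816. No cholesterol library correlated best with the PBS library of its own number. Of the PBS libraries, only replicate 1 correlated best with its own number. Such correlations from groups of 3 libraries cannot settle whether the samples were paired. With the replicate block, 3165 genes were higher and 3056 lower. Leaving aside Nqo1, which was picked for its rise, Keap1 was higher and 4 of the 9 genes lower. Nfe2l2 was added there, at -0.23 (edgeR adjusted p = 0.0389). Srxn1 and Osgin1 had the fewest counts of the 9 genes, 64 to 167 per library, and the part of depth in their missing calls was not tested.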
